A study of Mus musculus with 9 samples.

Results

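The 10 genes of the Fc receptor and ITAM or ITIM signalling axis followed here were measured in the mouse macrophage-like line RAW264.7: Fcgr1, Fcgr2b, Fcgr3, Fcgr4, Fcer1g, Tyrobp, Trem2, Pirb, Sirpa and Syk. They were chosen by gene symbol and make up 10 of the 43629 genes listed, and all 10 passed the filter on low values, as did 14808 genes in all. RNA was sequenced from 3 untreated Control libraries, 3 libraries of cells stimulated with lipopolysaccharide (LPS, a cell wall component of Gram-negative bacteria) and 3 of LPS-stimulated cells pretreated with sodium butyrate (LPS+NaBu; NaBu inhibits histone deacetylases). All 9 libraries come from the same line, which grows as a transformed culture, and NaBu without LPS was not analysed here. The study set out to learn how NaBu changes the inflammatory response of macrophages, and the comparisons here ask how these receptors and their partners stood in each state.

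Fc gamma receptors bind the constant part of immunoglobulin G and let macrophages take up or respond to antibody-coated targets. FcγRI, FcγRIII and FcγRIV (Fcgr1, Fcgr3 and Fcgr4) are activating receptors that need the common gamma chain, encoded by Fcer1g, which carries an immunoreceptor tyrosine-based activation motif (ITAM). Tyrobp encodes DAP12, another ITAM adaptor, which serves Trem2, a receptor for lipids and apolipoproteins. When Src-family kinases phosphorylate an ITAM, the kinase Syk docks there and passes the signal on. FcγRIIb (Fcgr2b), PIR-B (Pirb) and SIRPα (Sirpa) carry inhibitory motifs (ITIMs) instead, which recruit phosphatases such as the product of Ptpn6.

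The upstream stretches of 3 Fc gamma receptor genes are shown first because Fcgr1 and Fcgr4 rose most with LPS and Fcgr3 fell. Each line gives the 250 bases before the annotated start, 5′ to 3′ on the gene's own strand, from RefSeq on GRCm38.p6, with a matched motif in capitals. The windows are chr3:96293970-96294219 (minus strand) for Fcgr1, chr1:171018676-171018925 (plus strand) for Fcgr4 and chr1:171059404-171059653 (minus strand) for Fcgr3, which has 2 overlapping windows, of which 1 is shown.
Fcgr1: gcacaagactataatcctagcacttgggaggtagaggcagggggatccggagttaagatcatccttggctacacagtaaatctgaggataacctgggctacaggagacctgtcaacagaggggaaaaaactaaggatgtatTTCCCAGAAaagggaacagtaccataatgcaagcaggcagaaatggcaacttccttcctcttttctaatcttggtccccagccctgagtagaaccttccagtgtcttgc
Fcgr4: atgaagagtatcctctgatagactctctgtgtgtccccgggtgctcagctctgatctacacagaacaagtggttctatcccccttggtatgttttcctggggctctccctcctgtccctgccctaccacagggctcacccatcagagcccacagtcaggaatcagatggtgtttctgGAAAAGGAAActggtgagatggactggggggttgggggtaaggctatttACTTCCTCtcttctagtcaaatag
Fcgr3: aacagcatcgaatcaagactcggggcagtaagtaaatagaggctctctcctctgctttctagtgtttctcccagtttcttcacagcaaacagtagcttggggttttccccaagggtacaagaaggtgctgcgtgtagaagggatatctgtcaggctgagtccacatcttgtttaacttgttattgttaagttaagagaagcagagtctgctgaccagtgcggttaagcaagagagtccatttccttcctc
Windows running from 250 bases before to 50 after a start were searched on both strands for a STAT site (TTCNNNGAA), an interferon response element (GAAA, any 2 bases, GAAA) and the PU.1 core (GAGGAAGT, which reads ACTTCCTC on the other strand). The promoter table matched 8 of the 10 genes, with 10 windows, and had no entry for Tyrobp or Sirpa. Fcgr1 held a STAT site that begins at position -109 from the start. Fcgr4 held the interferon response element at -73 and the PU.1 core at -24, which do not overlap. Pirb held a PU.1 core at -120, and the windows of Fcgr2b, Fcgr3, Fcer1g, Trem2 and Syk held none of the 3 motifs. Over all 32544 promoter windows, 8.33% held the STAT site, 3.45% the interferon response element and 3.11% the PU.1 core. These matches are letters in a window and say nothing about binding.

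The recorded values are read counts divided by a size factor for each library, called normalised counts here, and the libraries held 37.6 to 64.4 M reads. They are not divided by gene length. A gene was called changed at a limma adjusted p under 0.05 across all genes tested, each log2 change is a difference of log2(normalised count + 1) and carries ± SE, and levels are means ± SD (n = 3). The design text calls the replicates biological but does not say that they were separate cultures, so the p-values cover only how much these libraries vary, part of which may be technical. The macrophage markers Adgre1 (listed as Emr1), Cd68, Csf1r, Itgam, Mpeg1, Lyz2 and Cd14 were present in every library. Their summed level was 449082 to 466228 in Control, 618143 to 654751 with LPS and 214288 to 232383 with LPS+NaBu. Lyz2 led the sum, with a mean of 255390 in Control. Csf1r alone had a lower mean with LPS than in Control (25016 against 42749). Adgre1 alone had a higher mean with LPS+NaBu than in Control (5849 against 3690). Of 5 mast cell and basophil markers, 4 were at 0 in all Control libraries and all 5 were at 0 with LPS and with LPS+NaBu. Summed levels of 5 fibroblast markers were 6.36 to 12.1, 11 to 16.4 and 268 to 296 in Control, LPS and LPS+NaBu, led by Col1a1 at a mean of 147 with LPS+NaBu, and those of 4 platelet markers were 90.5 to 114, 107 to 196 and 366 to 417. The summed markers of NK, B and T cells and of neutrophils reached at most 112 in any library. Their part in the results was not tested.

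LPS stimulation raised the activating receptors Fcgr1 and Fcgr4 by more than any of the other 8 genes, lowered Fcgr3 and Trem2, and left Tyrobp uncalled. Called higher were 5 of the 10 genes (Fcgr1, Fcgr4, Fcgr2b, Syk and Fcer1g), where 25.2% of all genes tested were called higher. Called lower were 4 (Fcgr3, Trem2, Pirb and Sirpa), where 30.8% of all genes were. In all, 9 of 10 were called against 56.1% of genes tested, and Control and LPS libraries did not overlap for 8, beside 60.6% of all genes tested. With the libraries scaled to the same sum, 15.3% of all genes were called higher and 47.8% lower, and 5 of the 10 genes each way. The median log2 change was 0.28 over the 10 genes and -0.05 over all genes. In bulk RNA, a lower level can mean fewer cells with the transcript or less transcript per cell, and these cannot be told apart.

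With NaBu pretreatment of LPS-stimulated cells, 8 of the 10 genes were lower than with LPS alone and 2 (Fcgr3 and Pirb) were higher. All 10 were called, against 78.1% of all genes tested, and LPS+NaBu and LPS libraries did not overlap for any of them, nor for 79% of all genes. Over all genes, 37.8% were called lower and 40.2% higher (27.9% and 50.1% when scaled to the same sum, with the 10 genes still 8 and 2). The change was at least 2-fold for 8 of the 10, and the median log2 change was -1.37, beside 0.02 over all genes. Set against Control, LPS+NaBu libraries were lower for 8 genes, higher for Pirb and not called for Syk, so 9 of 10 were called where 76.1% of all genes were (35.1% lower, 40.9% higher). Libraries did not overlap for 9 of the 10, beside 79.4% of all genes. The median was -0.70, beside 0.09 over all genes. The LPS libraries serve in the first 2 comparisons, the Control libraries in the first and last, and the LPS+NaBu libraries in the last 2. The comparisons are thus not independent.

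**Figure D1:**
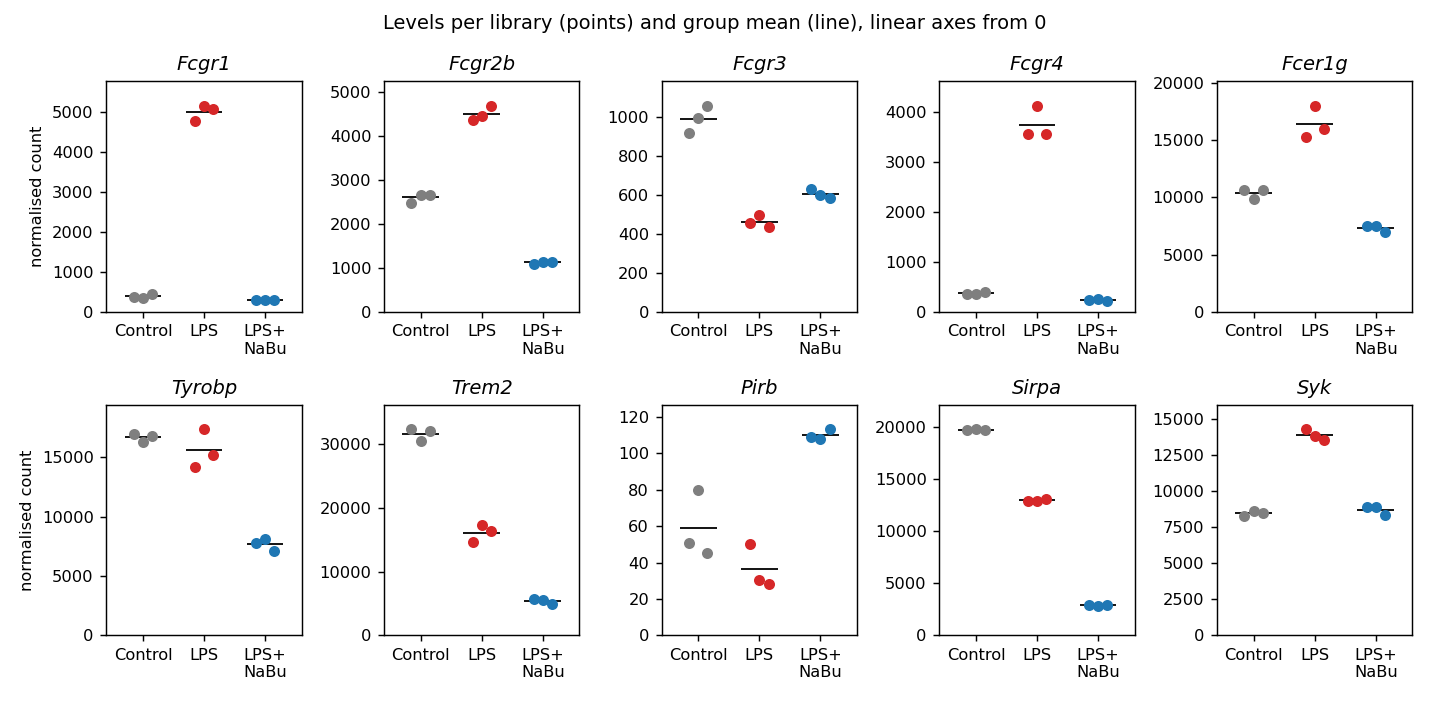
Normalised counts of the 10 genes in each library, with a linear vertical axis from 0 for each gene; points are libraries and lines are group means (n = 3). Fcgr1 and Fcgr4 stand far higher in the LPS libraries than in the other 2 groups, while Trem2 and Sirpa step down from Control to LPS to LPS+NaBu.

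Fcgr1 encodes the high-affinity receptor for immunoglobulin G (chr3:96190225-96201338, minus strand, GRCm39). Its normalised counts were 366, 339 and 441 in the Control libraries, 4775, 5146 and 5067 with LPS, and 292, 283 and 283 with LPS+NaBu. The 3 groups did not overlap, and the LPS libraries stood alone at the top. LPS raised Fcgr1 13.1-fold (log2 change 3.71 ± 0.09, adjusted p = 1.10e-12), a larger log2 change than that of 98.3% of the genes tested. NaBu pretreatment lowered it 17.4-fold from the LPS level (-4.12 ± 0.09, adjusted p = 2.99e-13), which only 0.533% of genes exceeded in that direction. It ended 1.33-fold below Control (-0.41 ± 0.09, adjusted p = 0.00103).

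Fcgr4 encodes an activating receptor for some mouse immunoglobulin G subclasses and lies on chromosome 1 between Fcgr2b and Fcgr3 (chr1:170846466-170857330, plus strand). It measured 359, 361 and 393 in Control, 3564, 4135 and 3572 with LPS, and 233, 255 and 206 with LPS+NaBu. Its pattern over the groups resembled that of Fcgr1, with no overlap between any pair of groups. The rise with LPS was 10.1-fold (3.33 ± 0.09, adjusted p = 5.62e-12) and the fall with NaBu pretreatment 16.2-fold (-4.02 ± 0.09, adjusted p = 5.34e-13). The level with LPS+NaBu was 1.60-fold below Control (-0.68 ± 0.09, adjusted p = 1.96e-05).

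Fcgr3, the activating receptor of low affinity, went the other way (chr1:170878738-170893549, minus strand). Its levels were 917, 992 and 1057 in Control, 453, 494 and 436 with LPS, and 628, 599 and 583 with LPS+NaBu. LPS lowered it 2.14-fold (-1.10 ± 0.08, adjusted p = 9.49e-08), and the LPS+NaBu libraries all stood above the LPS libraries and below the Control libraries. The difference from LPS was 1.31-fold (0.39 ± 0.08, adjusted p = 0.000667), and LPS+NaBu remained 1.64-fold below Control (-0.71 ± 0.08, adjusted p = 3.20e-06). Fcgr3 thus lay in between, whereas Fcgr1 and Fcgr4 fell past the Control level.

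Fcgr2b encodes the inhibitory Fc gamma receptor of the mouse (chr1:170786186-170804177, minus strand). It measured 2476, 2648 and 2661 in Control, 4363, 4451 and 4679 with LPS, and 1095, 1124 and 1136 with LPS+NaBu. LPS raised it 1.73-fold (0.79 ± 0.05, adjusted p = 2.00e-08), and NaBu pretreatment lowered it 4.02-fold from there (-2.01 ± 0.05, adjusted p = 9.52e-13), to 2.32-fold below Control (-1.21 ± 0.05, adjusted p = 1.10e-10). The groups did not overlap. Transcripts of Fcgr2b and Fcgr3 share stretches of sequence: 7.21% of the 75-base stretches in Fcgr2b transcripts and 4.27% of those in Fcgr3 also occur in another gene, with 1.54% of those in Fcgr2b found in Fcgr3. None of the 75-base stretches of Fcgr1, Fcgr4, Fcer1g, Tyrobp, Sirpa or Syk occurred in another gene, and 4.23% of those of Trem2 did. Of 150-base stretches, the read length in the study's methods, 2.6% in Fcgr2b and 0% in Fcgr3 occurred in another gene.

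Of the 4 Fc gamma receptor genes, Fcgr2b, Fcgr4 and Fcgr3 lie side by side on chromosome 1 in that order, and Fcer1g lies beyond them. The gap is 42.3 kb from Fcgr2b to Fcgr4, 21.4 kb from Fcgr4 to Fcgr3 and 164 kb from Fcgr3 to Fcer1g. Neighbours differed in direction: with LPS, Fcgr4 rose while Fcgr3 fell. The 276 kb from Fcgr2b to Fcer1g hold 21 annotated genes, of which 10 were tested. Of the 6 tested genes there that belong to neither the receptors nor the gamma chain, 2 were called higher, 1 lower and 3 not called with LPS, and 1 higher, 3 lower and 2 not called with LPS+NaBu against LPS.

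The make-up of the 4 receptor transcripts differed between the groups, with LPS+NaBu nearer to Control than LPS was; this is a description, with no test. Dividing by the exonic length of each gene, Fcgr2b gave 38.2% ± 1.16 of the 4 in Control, Fcgr3 27.5% ± 0.563, Fcgr4 25.0% ± 0.448 and Fcgr1 9.39% ± 0.921. With LPS, Fcgr4 held 55.5% ± 1.81 and Fcgr1 27.1% ± 0.902, while Fcgr2b held 14.6% ± 0.969 and Fcgr3 2.82% ± 0.0923. In LPS+NaBu libraries Fcgr3 held 30.1% ± 0.965, Fcgr2b 29.5% ± 1.39, Fcgr4 27.8% ± 2.09 and Fcgr1 12.6% ± 0.411. The levels per kb of the first 3 overlapped between libraries there. These shares depend on the length chosen: with the canonical transcript's length, Fcgr4 held 15.8%, 45.5% and 17.9% in Control, LPS and LPS+NaBu, and Fcgr3 34.8%, 4.63% and 38.7%. Fcgr4 had the largest share with LPS under both lengths.

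**Figure D2:**
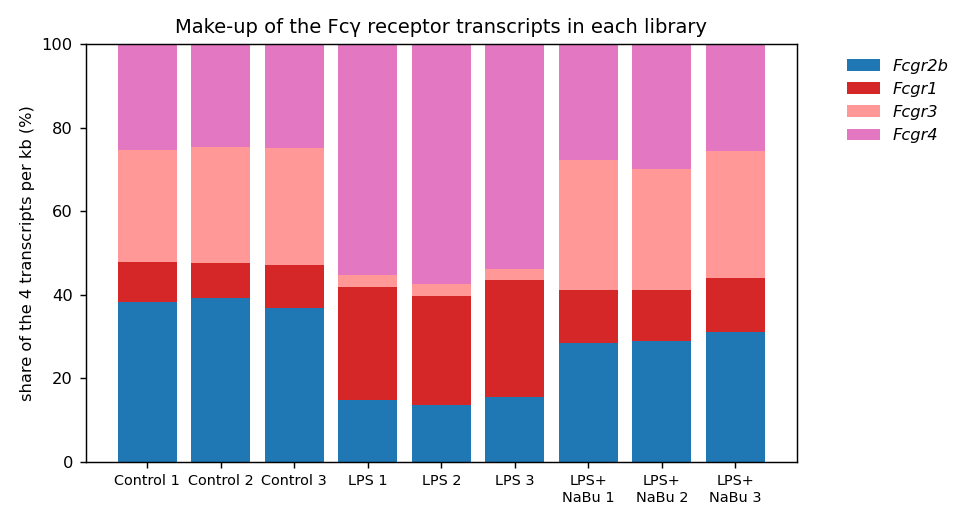
Share of each Fc gamma receptor in the summed level per kb of exonic length of the 4 genes (%), one bar per library. Fcgr4 takes 53.9% to 57.5% in the LPS libraries and 24.5% to 30% in the others.

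Ratios of 2 transcripts in the same library do not depend on the scaling between libraries. They are ratios of normalised counts, not divided by gene length. They serve to compare groups and do not give the relative numbers of the 2 transcripts. With 3 against 3 libraries the exact two-sided permutation test cannot go below 0.1, and 31 of the 33 comparisons of 11 pairs reached that value, the lowest adjusted value being 0.106. The ratio of Fcgr1 to the inhibitory Fcgr2b was 0.147 in Control libraries, 1.11 after LPS and 0.256 in LPS+NaBu libraries. It was 7.57-fold higher with LPS than in Control and 4.33-fold lower with LPS+NaBu than with LPS, without overlap (exact permutation p = 0.1 for both). Fcgr4 to Fcgr2b stood at 0.143, 0.834 and 0.207 in the same order, and Fcgr3 to Fcgr2b at 0.381, 0.103 and 0.540. All 3 activating receptors were thus higher against Fcgr2b with LPS+NaBu than in Control, 1.75-fold for Fcgr1, 1.44-fold for Fcgr4 and 1.42-fold for Fcgr3, with no overlap between libraries (exact permutation p = 0.1 for each).

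**Figure D3:**
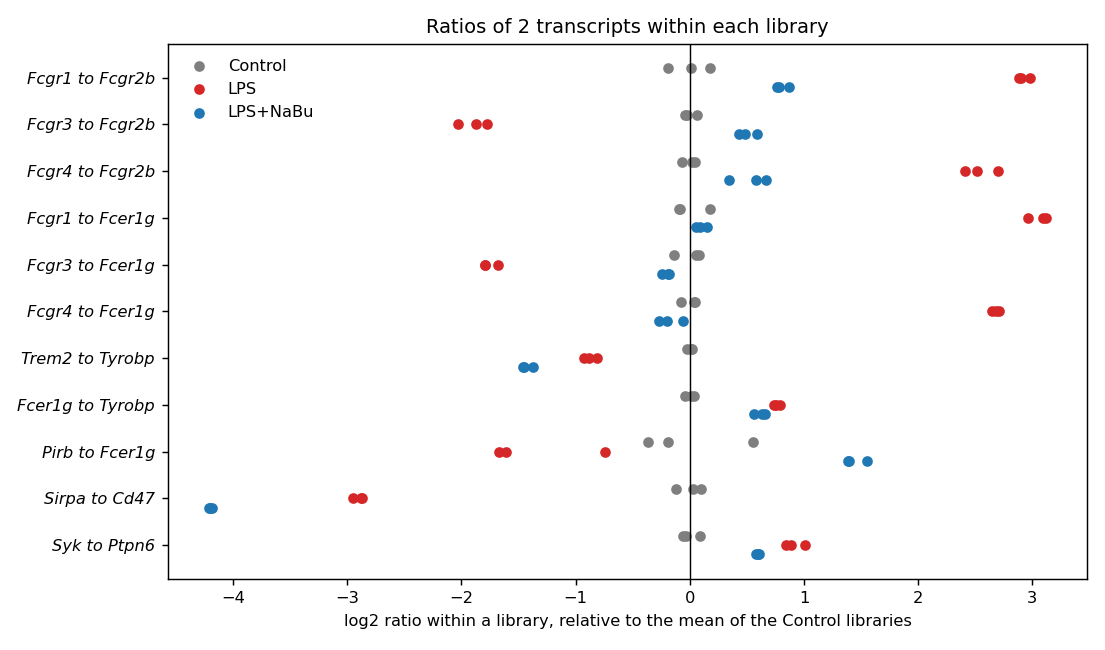
Log2 ratio of 2 transcripts within each library, relative to the mean of the 3 Control libraries; each point is a library. For the ratios of Fcgr1 and Fcgr4 to Fcer1g, the LPS+NaBu points overlap the Control points, while the ratio of Sirpa to Cd47 is lower in both treated groups.

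Fcer1g, the gamma chain shared by the activating receptors, changed in the same directions as Fcgr1 and Fcgr4, with smaller log2 changes (chr1:171057141-171062219, minus strand). It measured 10617, 9882 and 10697 in Control, 15296, 18033 and 15955 with LPS, and 7518, 7481 and 6991 with LPS+NaBu. The groups stood apart, with a 1.58-fold rise (0.66 ± 0.06, adjusted p = 8.57e-07) and then a 2.24-fold lower level with NaBu (-1.16 ± 0.06, adjusted p = 9.76e-10), which was 1.42-fold below Control. Against Fcer1g, Fcgr1 stood at 0.0366, 0.305 and 0.0392 in the Control, LPS and LPS+NaBu libraries, and the first and last overlapped (exact permutation p = 0.4). Fcgr4 to Fcer1g stood at 0.0358, 0.229 and 0.0316, with Control and LPS+NaBu overlapping again (exact permutation p = 0.2). Fcgr3 to Fcer1g stood at 0.0951, 0.0282 and 0.0825.

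Tyrobp, the gene of the adaptor DAP12, was the highest of the 10 per kb of exonic length in all 3 groups (chr7:30113170-30117010, plus strand). It measured 16968, 16321 and 16764 in Control and 14215, 17350 and 15175 with LPS, which overlap. The difference was not called (-0.10 ± 0.07, adjusted p = 0.219), although without the second LPS library it was called lower (-0.18, adjusted p = 0.0142), as it was under 3 other scalings. With LPS+NaBu it measured 7780, 8128 and 7120, below all other libraries. That is 2.03-fold below LPS (-1.02 ± 0.07, adjusted p = 1.27e-08) and 2.18-fold below Control. The ratio of the ITAM chains, Fcer1g to Tyrobp, in normalised counts was 0.623, 1.06 and 0.956 in Control, LPS and LPS+NaBu, without overlap between groups. It is not a ratio per kb, by which Tyrobp was the higher in each group.

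Trem2 fell at both steps (chr17:48653429-48661175, plus strand). Its levels were 32340, 30464 and 32157 in Control, 14625, 17320 and 16373 with LPS, and 5696, 5636 and 4893 with LPS+NaBu. LPS lowered it 1.97-fold (-0.98 ± 0.07, adjusted p = 6.01e-08) and the LPS+NaBu level was 2.98-fold lower again (-1.57 ± 0.07, adjusted p = 1.69e-10), 5.86-fold below Control. Its ratio to Tyrobp, its adaptor, in normalised counts and not per kb, was 1.90, 1.03 and 0.704 in the same order of groups. No groups overlapped in this ratio (exact permutation p = 0.1 for each pair of groups).

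Sirpa, whose product binds CD47 and restrains phagocytosis, had the largest fall below Control among the 10 genes (chr2:129434039-129474148, plus strand). It measured 19696, 19722 and 19640 in Control, 12882, 12831 and 13058 with LPS, and 2938, 2810 and 2938 with LPS+NaBu. LPS lowered it 1.52-fold (-0.61 ± 0.04, adjusted p = 1.61e-08), and LPS+NaBu libraries stood 4.46-fold below LPS (-2.16 ± 0.04, adjusted p = 6.06e-14) and 6.80-fold below Control. Cd47, the ligand's gene, rose 4.91-fold with LPS (adjusted p = 1.27e-12) and was 1.82-fold lower with LPS+NaBu than with LPS, still 2.7-fold above Control. The ratio of Sirpa to Cd47 went from 12.1 in Control to 1.62 and then 0.661, an 18.3-fold lower value with LPS+NaBu than in Control.

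Pirb, a receptor for MHC class I proteins, was the lowest of the 10 per kb of exonic length in every group (chr7:3714408-3723416, minus strand). It was counted from 20 to 159 reads a library. It measured 50.9, 80 and 45.3 in Control, 50.1, 30.5 and 28.2 with LPS, and 109, 108 and 113 with LPS+NaBu. Control and LPS libraries overlap, and the LPS+NaBu libraries stood above all others. Its fall with LPS passed narrowly (-0.68 ± 0.27, adjusted p = 0.0444). The call was lost without the first Control library (-0.76, adjusted p = 0.0588) or the second (-0.44, 0.194), without the second LPS library (-0.58, 0.114) or the third (-0.53, 0.143), and without any 1 LPS+NaBu library (-0.68, 0.0592 to 0.0629). Its rise with NaBu over LPS was 3.08-fold (1.62 ± 0.27, adjusted p = 9.00e-05), and it was 1.92-fold above Control (0.94 ± 0.27, adjusted p = 0.00592). Of its 75-base stretches 28.1% also occur in other genes, mainly the activating relatives Pira12, Pira2, Lilra6 and Pira1. Of its 150-base stretches 15.1% do. Reads may thus have been dropped or split between these genes, and the values of Pirb are uncertain. Lilra6 was also called higher with LPS+NaBu than with LPS, at low levels (14 ± 0.479 against 2 ± 0.825). So was Pira1, listed as Gm15922 (15.1 ± 2.65 against 3.32 ± 1.81). Pira2 overlapped between these groups (9.51 ± 7.46 against 1.17 ± 2.03) and did not pass the filter. Whether shared reads bear on the rise of Pirb was not tested.

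Syk, the kinase that binds phosphorylated ITAMs, rose with LPS and was not called different from Control with LPS+NaBu (chr13:52736696-52802828, plus strand). It measured 8268, 8626 and 8517 in Control, 14286, 13854 and 13555 with LPS, and 8929, 8881 and 8381 with LPS+NaBu. The rise was 1.64-fold (0.71 ± 0.04, adjusted p = 9.67e-09) and LPS+NaBu was 1.59-fold below LPS (-0.67 ± 0.04, adjusted p = 6.45e-09). Control and LPS+NaBu overlap (0.04 ± 0.04, adjusted p = 0.363), and the sign of that difference depended on the scaling. Ptpn6, the phosphatase gene, was lower with LPS and lower again with LPS+NaBu, so Syk to Ptpn6 went from 0.667 to 1.26 and then 1.01.

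**Figure D4:**
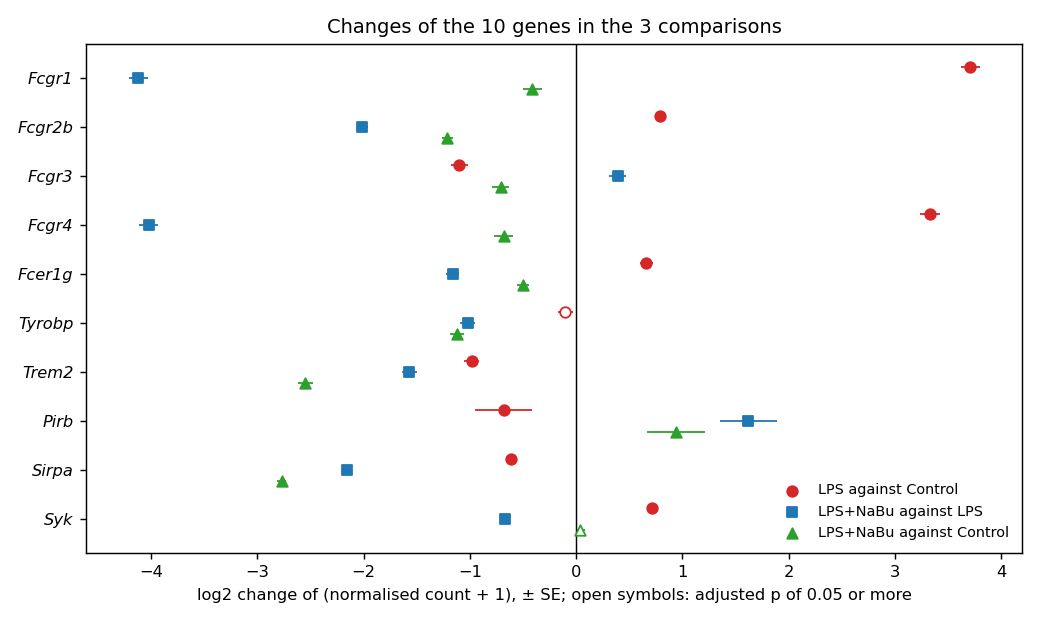
Log2 change of each gene in the 3 comparisons (points, ± SE), with open symbols where the limma adjusted p was 0.05 or more. Fcgr1 and Fcgr4 lie at 3.71 and 3.33 with LPS and at -4.12 and -4.02 with LPS+NaBu against LPS, and Tyrobp (LPS against Control) and Syk (LPS+NaBu against Control) are the open symbols.

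Per kb of exonic length, the order Tyrobp, Fcer1g, Trem2 opened each group, with Fcer1g at 8972, 14174 and 6324 normalised counts per kb in Control, LPS and LPS+NaBu. Fcgr4 moved from rank 8 in Control (290 per kb) to rank 4 with LPS (2937 per kb) and back to rank 8 (181 per kb). Neighbours in that order whose libraries overlapped were Fcgr3 and Fcgr4 in Control, and Trem2 and Fcgr4 as well as Fcgr1 and Syk with LPS. With LPS+NaBu they were Fcgr3 and Fcgr2b as well as Fcgr2b and Fcgr4. These ranks and overlaps rest on exonic length alone. By the canonical transcript's length, Fcgr3 held 34.1% to 35.3% of the 4 receptors in Control and Fcgr4 15.4% to 16.1%. With LPS+NaBu, Fcgr3 held 37.8% to 39.8%, Fcgr2b 31.5% to 34.1% and Fcgr4 16.4% to 19.5% by that length, without overlap.

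The listed Src-family kinases, taken with Btk, Tec and Csk, which do not phosphorylate these motifs themselves, rose mostly with LPS. Of 9 tested kinases, 6 were higher and 2 lower (median 1.60), where 25.2% of all genes were called higher and 30.8% lower. With LPS+NaBu against LPS 2 were higher and 7 lower (median -1.42), beside 40.2% and 37.8% of all genes. Src, which gives its family its name, rose 5.30-fold with LPS (adjusted p = 1.11e-13). Fgr, another of that family, fell from 3119 ± 244 with LPS to 191 ± 27.8 with LPS+NaBu, 16.3-fold (adjusted p = 9.52e-13). Fyn rose 2.77-fold with NaBu over LPS, and Btk was 6.70-fold below Control with LPS+NaBu. For these and the lists that follow, the median over all genes was -0.05, 0.02 and 0.09 in the 3 comparisons.

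Of 25 genes listed for signalling after Syk, 13 rose and 9 fell with LPS (median 0.15), beside 25.2% and 30.8% of all genes. Whether each of them, such as Pik3cg and Pik3r5, acts after Syk in these cells was not tested. With LPS+NaBu against LPS 7 were higher and 16 lower (median -0.36), 23 called in all, beside 78.1% of all genes called (40.2% and 37.8%). Lcp2, an adaptor downstream of Syk, rose 3.49-fold with LPS and was 25.2-fold lower with LPS+NaBu (-4.66 ± 0.04, adjusted p = 4.08e-16). Plcg1, a phospholipase, moved the other way, falling 1.92-fold with LPS and standing 4.44-fold higher with NaBu. Of 16 phosphatases and adaptors listed as limiting ITAM signals, 8 rose and 3 fell with LPS, beside 25.2% and 30.8% of all genes. So 11 were called where 56.1% of all genes were. With LPS+NaBu against LPS 5 were higher and 10 lower, beside 40.2% and 37.8% (medians 0.16 and -0.61). The list includes Ptprc, Ptprj and Ptpn11, which can also promote such signals, so these counts are not those of limiting genes alone. Dok2, an adaptor that dampens kinase signals, was 15.6-fold lower with NaBu than with LPS alone (adjusted p = 8.23e-14).

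In a list drawn up for other receptors that signal through an ITAM or hemITAM, 13 of 19 tested genes rose and 1 fell with LPS. These stand beside 25.2% and 30.8% of all genes. Against LPS, 5 were higher and 12 lower with LPS+NaBu, beside 40.2% and 37.8% (medians 0.52 and -0.94). Not every gene fits the list's name: Treml1, which fell with LPS, has an ITIM, and Hcst, which rose, is an adaptor without an ITAM. Klrk1 averaged 43.9 ± 11.2 with LPS and was at 0 in all Control and LPS+NaBu libraries. The medians were the same with Klrk1 set to its bound at 3 reads a library. Fcrl1, an Fc receptor-like gene, was 13.0-fold below Control with LPS+NaBu (adjusted p = 7.72e-14). In a list drawn up for other receptors with ITIMs, 10 of 18 tested genes rose and 4 fell with LPS, beside 25.2% and 30.8% of all genes. With LPS+NaBu against LPS 2 were higher and 13 lower, beside 40.2% and 37.8% (medians 0.86 and -1.15). The genes counted include Cd200r1, Clec4a1 and Clec4a3, which lack an ITIM. Cd300lf, an inhibitory receptor of myeloid cells, rose 11.2-fold with LPS (adjusted p = 4.70e-14), and Clec12a went from 3154 ± 173 with LPS to 48.8 ± 3.59 with LPS+NaBu, 63.4-fold lower (adjusted p = 5.37e-15).

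Only 3 of 7 other immunoglobulin-binding genes were tested. Trim21, the cytosolic antibody receptor, rose 10.3-fold with LPS and was 1.74-fold lower with NaBu than with LPS. Fcgrt, the neonatal Fc receptor that recycles immunoglobulin G, fell 1.98-fold with LPS and was 7.38-fold higher with LPS+NaBu than with LPS (adjusted p = 1.51e-11), above its Control level by 3.72-fold. Lgals3 was 2.34-fold lower with NaBu than with LPS. Of 8 ligands and sheddases of the receptors, 6 rose and 2 fell with LPS, beside 25.2% and 30.8% of all genes (median 1.20). With LPS+NaBu against LPS 1 was higher and 3 lower (median -0.12), so 4 of 8 were called, below the 78.1% of all genes. Clu, an apolipoprotein that Trem2 binds, rose 3.73-fold with LPS and 2.44-fold again with NaBu (adjusted p = 9.94e-08), to 9.08-fold above Control.

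Against Control, 40.9% of all genes were called higher with LPS+NaBu and 35.1% lower, 76.1% in all. Beside that, the LPS+NaBu libraries had 4 kinases higher and 5 lower (median -0.23). In the list for signalling after Syk 10 genes were higher and 14 lower (-0.21). Of the listed phosphatases and adaptors 6 were higher and 8 lower (-0.41). In the list of other ITAM or hemITAM receptors 6 genes were higher and 9 lower (-0.42), and in the ITIM receptor list 7 and 9 (-0.67). Ligands and sheddases had 6 higher and 2 lower (0.83), and the immunoglobulin-binding genes 2 higher and 1 lower.

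**Figure D5:**
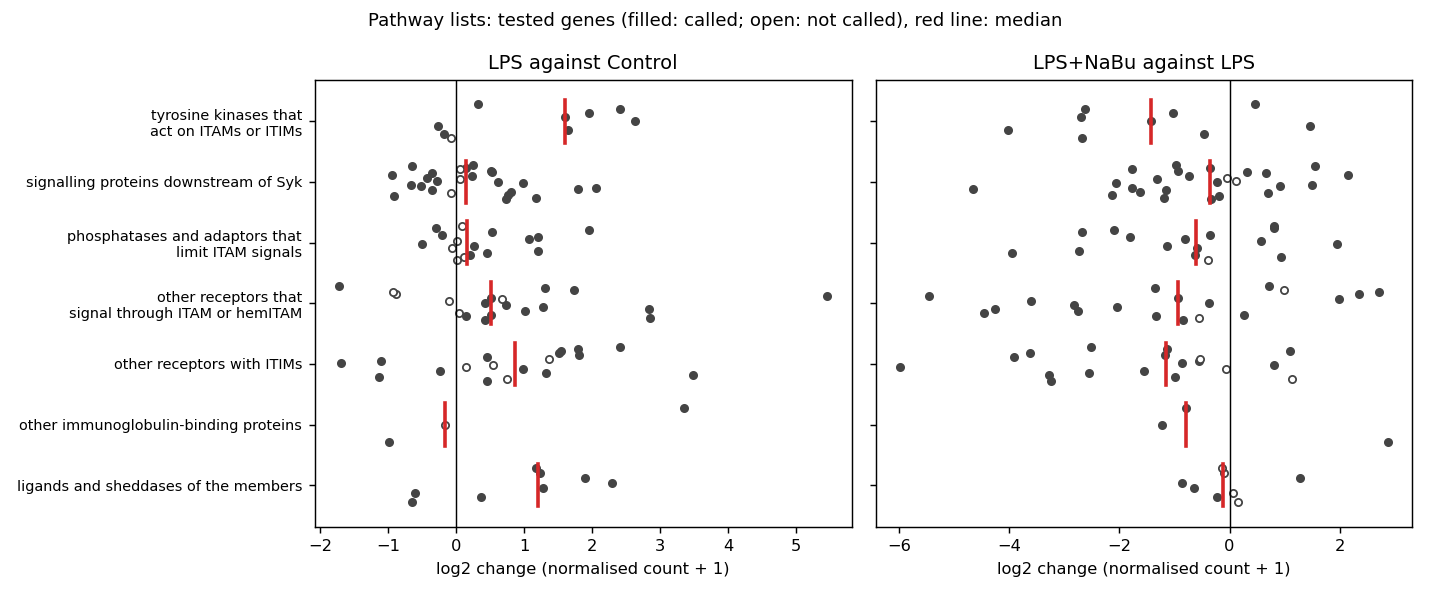
Log2 changes of the tested genes of each pathway list with LPS against Control (left) and LPS+NaBu against LPS (right), filled where called and open where not, with a red line at the list's median. The horizontal scales of the panels differ; the tyrosine kinase median is 1.60 on the left and -1.42 on the right.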

How the data were processed

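RNA of 9 RAW264.7 libraries (3 Control, 3 LPS, 3 LPS+NaBu) was analysed. Each deposited signal, named FPKM by the authors, is a gene count divided by 1 size factor per library: 100% of values were whole multiples of the worth of 1 read (tolerance 0.001), though in 3 libraries that worth is within 1% of 1. The study's methods name HISAT2 and featureCounts with uniquely mapped reads, whereas mm39, STAR 2.7.7a and DESeq2 stand in the submitters' processing notes. Which made the values was not settled, and a strand setting is not given in the sources. Antisense genes overlap 6.06% of Fcgr2b and 8.75% of Trem2 exonic bases.

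Genes with a value of at least 10 in at least 3 libraries were tested as log2(value + 1) with limma 3.58.1 in R 4.3.3 (a mean per group, all 9 libraries, intensity trend, two-sided, Benjamini-Hochberg adjustment over 14808 genes). The script was tested on simulated data. Ratios were compared by exact two-sided permutation, adjusted over 33 comparisons. Positions are from GENCODE M39 (GRCm39), to which 89.35% of identifiers matched, and promoters from RefSeq (GRCm38.p6). Alternatives were edgeR 4.0.16, DESeq2 1.42.0 and limma-voom on recovered reads, other scalings, pseudocounts and filters, a replicate block, and each library left out. The 10 genes, the lists and the motifs were chosen with earlier results of these data known. The rule for other named genes took up to 2 largest called rises and falls per list and comparison, Cd47 and Ptpn6; the text gives a selection of them, made after their values were seen, and 1 is not reported here. The planned search for protein motifs was not run.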

Additional observations from a re-analysis of the deposited data

How the results depend on the processing

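Over 22 alternatives, the count of the 10 genes called ran from 8 to 10 for LPS against Control, was 10 throughout for LPS+NaBu against LPS and 9 for LPS+NaBu against Control. Counts over all genes ran from 7521 to 9347, 9634 to 12549 and 9502 to 12078. All 10 genes kept their direction in every setting, except Syk with LPS+NaBu against Control, which turned to -0.05 with TMM factors and -0.02 with edgeR and with limma-voom, and was called higher under quantile normalization (0.11, limma adjusted p = 0.0245). Tyrobp with LPS against Control was called lower with TMM factors (limma adjusted p = 0.0337), quantile normalization (0.000169) and scaling to the same sum (0.000458). Pirb with LPS against Control lost its call in 13 of 22 settings, over which its adjusted p ran from 0.00903 to 0.194, and Pirb with LPS+NaBu against Control lost it under quantile normalization (0.27, 0.361). The causes were not tested. Scaling to the same sum shifted the median of all genes by -0.23, 0.28 and 0.05 on the log2 scale.

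The replicate numbers showed no sign of pairing: deviations of same-numbered libraries from their group means correlated between -0.044 and 0.02 over 9 pairs. This does not tell whether same-numbered libraries were cultured or prepared together. With the number as a replicate block, 8 of the 10 genes were called with LPS against Control, Pirb being lost (limma adjusted p = 0.0542), and 7977 of all genes were. The shares of the 4 Fc gamma receptors by canonical transcript length, chosen after seeing the data, moved by more than 1 SD in each group, with Fcgr1 at 7.85%, 29.3% and 10.7% and Fcgr2b at 41.5%, 20.5% and 32.6% in Control, LPS and LPS+NaBu. Pirb was counted from 20 to 159 reads a library.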
